A study of Mus musculus with 7 samples.

Results

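Gene expression in cells sorted from the mouse mammary gland was set against a universal mouse reference RNA. All 7 arrays of the series entered: 3 of side population (SP) cells, 3 of non-side population (NSP) cells and 1 of the reference. Mammary gland cells had been stained with a Hoechst dye and sorted by its blue and red emission, SP cells being those that keep little dye, and the RNA of each sort had been amplified in 2 rounds. The labels give no strain, age, reproductive state or animal for any sample, so the replicates may share animals and their spread may be partly technical. The reference is a commercial RNA from Stratagene, used by the submitters to normalize the arrays; the labels do not say whether it was amplified in the same way. Genes were named from the authors' deposited list of 1632 probe sets, of which 1483 carried 1 current symbol, giving 1311 genes, and 157 of these fell into the 6 classes described here. The authors had chosen that list for a difference between SP and NSP cells on these arrays, so the differences between the populations among named genes are not independent evidence.

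Side population cells exclude Hoechst through ATP-driven efflux pumps of the ABC transporter family, and the gate has been used in many tissues to enrich stem-like cells. The mammary gland holds luminal epithelial cells, which line the ducts and make milk, basal or myoepithelial cells, which contract around them, and a stroma of fibroblasts, fat cells, blood vessels and immune cells. A universal reference RNA is a pool of RNA from cultured cell lines of several tissues, made to give some signal for most genes. A ratio to it therefore says how a gene's signal compares with that of growing cell lines, and places SP and NSP cells on 1 common scale.

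The arrays were comparable in brightness. Their median signals lay between 79.3 and 97.2, with 89.6 on the reference, so the array medians differed from it by -0.18 to 0.12 on the log2 scale. Across probe sets the sorted-cell arrays correlated with each other at 0.937 to 0.960 and with the reference at 0.893 to 0.903. Within 1 population few probe sets spread widely: of 17236 with a signal of 100 or more on all 6 sorted arrays, 0.157% ranged over 4-fold or more among the SP arrays and 0.133% among the NSP arrays. How complete the labelled copies are shows in the control probe sets: signal at the 3' end over signal at the 5' end, on the log2 scale, was 2.38 to 4.16 for Actb on the sorted arrays and 3.48 on the reference, and for Gapdh 2.14 to 4.35 and 2.18. The reference has 1 array and no replicate. No p-value is given against it, and its source and its handling cannot be told apart.

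A gene was called far from the reference when every array concerned was at least 4-fold from it on the same side and the brighter side reached a signal of 100. By this rule 99 of 1212 eligible named genes were far above the reference in both populations (8.17%, against 3.24% of all probe sets) and 22 of 1187 far below it in both (1.85%, against 1.87%). The share below is thus close to that of all probe sets. A further 8 genes were far above in SP cells alone (0.644%, against 0.114%), 14 far above in NSP cells alone (1.12%, against 0.26%), 8 far below in SP cells alone (0.674%, against 0.2%) and 6 far below in NSP cells alone (0.505%, against 0.125%). "Alone" also required the other population to have no array that far on that side and the population means to lie at least 1 log2 unit apart. Over all named genes the median log2 ratio to the reference was -0.18 in SP and -0.017 in NSP cells. The nearest genes on either side of the 4-fold limit were Arhgap31 (4.05-fold on its nearest array) and Wnt11 (4.07) inside and Krt6a (3.95) and Col4a1 (3.89) outside for the genes above, and Masp1 (4.04) and Themis2 (4.19) inside and Nek1 (3.92) and Bub1b (3.89) outside for those below.

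**Figure D1:**
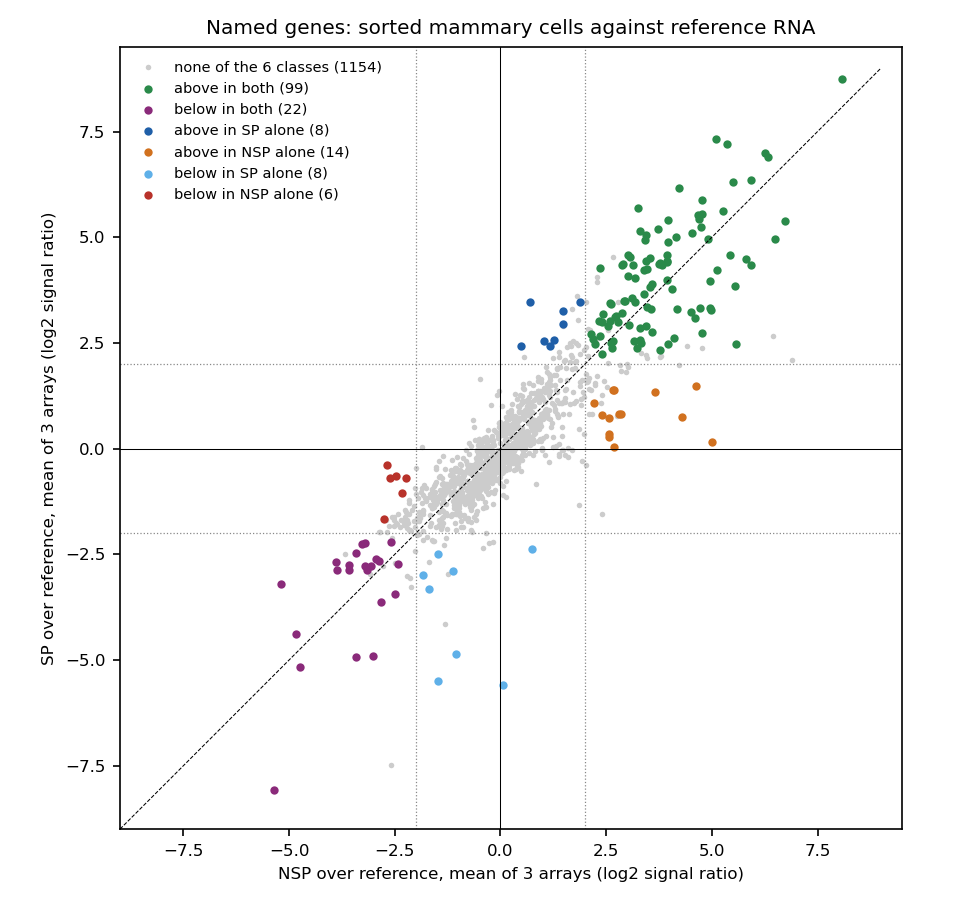
Mean log2 signal ratio to the reference array in SP cells (vertical axis) against NSP cells (horizontal axis), 3 arrays each, for the 1311 named genes, coloured by class. Dotted lines mark 4-fold and the dashed line equal ratios. The 99 genes far above in both lie in the upper right and the 22 far below in both in the lower left. Not all of them are near the dashed line. Of the 99, every SP array was above every NSP array for 47, and the reverse held for 21. These counts are not given for all named genes. The 36 genes of a single population lie at least 1 log2 unit off the line, which the class rule itself required.

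The brightest contrasts above the reference were shared by both populations. Tfpi2, which encodes an inhibitor of serine proteases in the extracellular matrix, had signals of 20788, 18695 and 16784 in SP and 11696, 10847 and 12906 in NSP cells against 43.9 in the reference. It was thus among the bright transcripts of all 6 sorted samples and below the median signal of 89.6 on the reference array. Its ratios were 426-fold and 268-fold (log2 8.73 ± 0.15 and 8.07 ± 0.13, SD, n = 3 each). Ang, which encodes the ribonuclease angiogenin and belongs to a family of similar genes that the probe set may not separate, had 2517, 1888 and 2599 in SP, 1745, 1293 and 1714 in NSP cells and 19.4 in the reference. Kcne4, an accessory subunit of potassium channels, had 2124, 1861 and 2603, then 1353, 1127 and 1418, and 15.1 in the reference. That last signal is under the floor of 17, the 20th percentile of the sorted arrays, to which lower signals were set. The mean ratios of Kcne4 are therefore bounds of at least 128-fold and 76.1-fold. For 23 of the 99 genes the reference was at or under this floor.

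Of these 99 genes, 65 had the higher mean in SP cells and 34 in NSP cells. The same split over all named genes is not given, so it is not shown to be particular to this class. Where a gene had further listed probe sets, 17 of 21 of them were also at least 2-fold above the reference on every array. Secreted regulators in the class included cytokines and growth factors, named after their values were seen except for Il6. Il6, an inflammatory cytokine, had 3529, 3196 and 3955 in SP and 2296, 1376 and 1499 in NSP cells against 209 in the reference. Its relatives Il11 and Lif, which signal through the same receptor subunit, had log2 ratios of 4.52 ± 0.16 and 3.02 ± 0.25 in SP and 3.07 ± 0.54 and 2.32 ± 0.10 in NSP cells. Inhba, a subunit of activin, had 15422 to 21720 in SP, 11322 to 15204 in NSP cells and 883 in the reference. Wnt5a, a ligand of non-canonical Wnt signalling, had 3988 to 4269, 3231 to 3675 and 326. None of the 3 other genes of the chemokine and cytokine list, Cxcl1, Il33 and Tslp, was far above. Tslp, an epithelial cytokine, was instead lower on every sorted array (265, 312 and 416 in SP, 204, 231 and 234 in NSP cells, 1063 in the reference).

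The Hsp70 genes Hspa1a and Hspa1b were far above the reference in both populations, while the other named members of the heat shock list were nearer to it. Heat shock proteins help other proteins fold, and these inducible genes are textbook targets of heat shock factor. Hspa1a had signals of 23060, 23000 and 21092 in SP and 17697, 16940 and 15618 in NSP cells against 274 in the reference. Hspa1b had 22183, 25876 and 22012, then 16631, 16838 and 20916, and 469.6 in the reference. All 6 sorted arrays stood far above the reference for both genes, by 81.7-fold and 61.1-fold for Hspa1a and 49.6-fold and 38.4-fold for Hspa1b in SP and NSP cells.

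These genes are near-identical copies, and their probe sets may not separate them. The 150 bases before the start of each gene are shown from RefSeq (GRCm38.p6, chr17:34972157-34972306 and chr17:34959239-34959388, minus strand for both). They lie before the transcripts, so they do not show whether the probe sets separate the genes. GAANNTTC, a core of the heat shock element, and CCAAT or its reverse ATTGG are in capitals.
Hspa1a: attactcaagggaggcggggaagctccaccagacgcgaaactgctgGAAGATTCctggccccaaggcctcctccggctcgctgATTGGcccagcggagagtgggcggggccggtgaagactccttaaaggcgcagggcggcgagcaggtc
Hspa1b: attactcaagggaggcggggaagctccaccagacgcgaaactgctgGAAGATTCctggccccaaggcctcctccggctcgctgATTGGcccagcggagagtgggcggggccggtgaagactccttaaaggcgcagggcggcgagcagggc
The printed stretches are identical at 149 of 150 bases, and the 250 bases before the starts at 247 of 250. GAANNTTC, which reads the same on both strands, occurred in the 250 bases before the start in 6.69% of 32851 mouse promoters, and CCAAT on either strand in 33.8%.

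The remaining members of the heat shock list were closer to the reference. Hspa8, the constitutive Hsp70, had 2210, 2725 and 1796 in SP and 807, 1046 and 856 in NSP cells against 373, and was far above in SP cells alone. Dnajb1, a co-chaperone of Hsp70, had log2 ratios of 0.86 ± 0.25 and 0.19 ± 0.02, and Bag3, another, 1.22 ± 0.27 and 0.86 ± 0.32. Dnaja1 had 0.33 ± 0.09 and 0.01 ± 0.28, the NSP value turning to -0.064 after quantile normalization. All 6 named members of the list of 12 had means above the reference in both populations, as 40.1% of named genes did, with a median of 1.89 in SP and 1.06 in NSP cells. Dnaja4, a co-chaperone outside that list, was far above in both, with 766, 1034 and 1031 in SP and 455, 571 and 645 in NSP cells against 103. Cryab, a small heat shock protein outside that list, had 20573 to 27094 in SP, 16834 to 23160 in NSP cells and 2987 in the reference. Immediate early genes, which respond quickly to stimuli, were nearer to the reference or below it: of 5 named among 24, none was above it on every array of either population, and the list medians were -0.22 and -0.98.

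**Figure D2:**
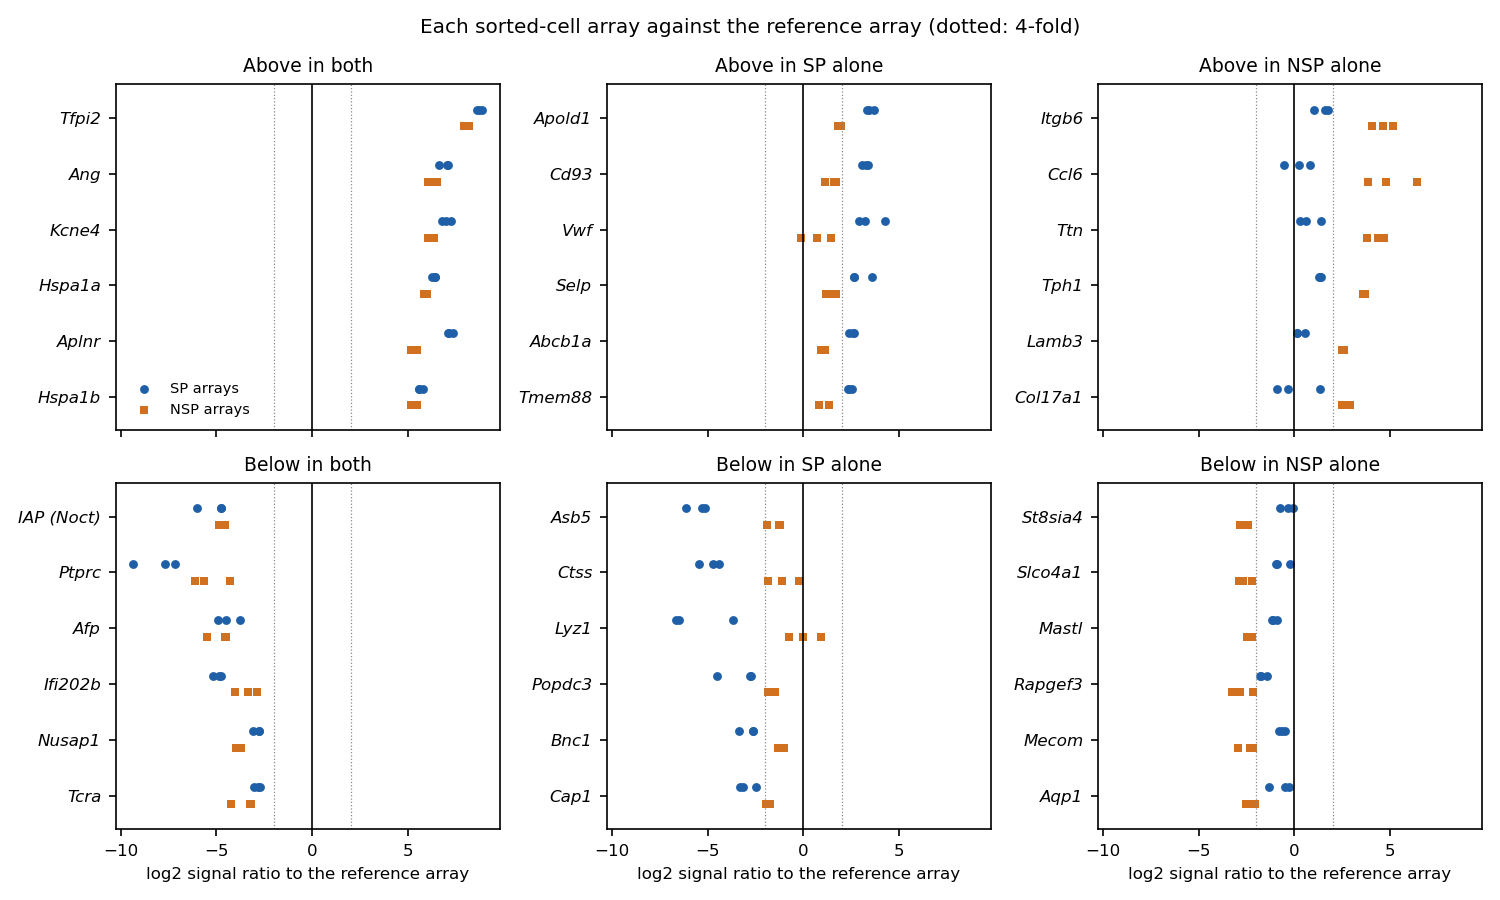
Log2 signal ratio of each sorted-cell array to the reference array (horizontal axis, shared) for the 6 named genes farthest from the reference in each class; circles are the 3 SP arrays and squares the 3 NSP arrays, and dotted lines mark 4-fold. In the classes of a single population the circles and squares do not overlap, which the class rule itself required.

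Epithelial genes were above the reference in both populations and more so in NSP cells. In bulk samples fewer cells of a type and less RNA per cell cannot be told apart, here or in any marker list that follows. Cdh1, the adhesion molecule E-cadherin, had 1862, 1851 and 3046 in SP and 6519, 7222 and 5577 in NSP cells against 70.7 in the reference. Every SP array was thus far above the reference and below every NSP array. Cldn3, a tight junction protein, had 318, 368 and 669, then 1123, 1642 and 1172, and 21.2. Krt7, a keratin of simple epithelia, reached log2 ratios of 3.84 ± 0.49 in SP and 5.55 ± 0.17 in NSP cells, and Cldn4 3.27 ± 0.35 and 4.98 ± 0.28. Not all luminal genes separated from the pool of cell lines. Krt8, the keratin of luminal cells, had 5186, 5928 and 9185 in SP and 15172, 17529 and 14865 in NSP cells against 6312, so the SP arrays lay on both sides of the reference. Epcam and Cd24a were also near it, at -0.33 ± 0.62 and 0.23 ± 0.19 in SP and 1.15 ± 0.15 and 0.93 ± 0.19 in NSP cells. Of the luminal list, 8 of 23 genes were named, 4 of them far above in both populations (8.17% of named genes and 3.24% of all probe sets), with medians of 2.71 in SP and 4.23 in NSP cells.

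Basal and junction genes showed the same order. Krt14, a keratin of basal cells, had 415, 594 and 556 in SP and 1571, 1478 and 1299.6 in NSP cells against 84.4. Krt5, its partner, and Krt17 had log2 ratios of 2.18 ± 0.27 and 2.16 ± 0.40 in SP and 3.80 ± 0.30 and 3.77 ± 0.20 in NSP cells. Trp63, the transcription factor p63 of basal cells, departed from this: 156, 184 and 110.5 in SP cells lay under the 192 of the reference, and 1062, 816 and 560 in NSP cells above it. The basal list (5 of 13 named) had medians of 2.18 and 3.80, and the list of epithelial junctions and hemidesmosomes, the plaques that anchor basal cells to their basement membrane, 1.64 and 3.00 (10 of 20 named). Dsp, which ties keratins to desmosomes, was far above in both (3051, 2603 and 4198 in SP and 9441, 9034 and 7264 in NSP cells against 322), and Itgb6, Lamb3 and Col17a1 were so in NSP cells alone. Itga6, an integrin of the same plaques, was lower than the reference on every array (684 to 856 in SP, 1113 to 1306 in NSP cells, 1379 in the reference). Serpinb5, an epithelial serine protease inhibitor chosen after its values were seen, had 476, 671 and 1105 in SP and 1725, 1732 and 1976 in NSP cells, and 4.9 in the reference. Its mean ratios were thus at least 41.5-fold and 106-fold.

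Most named endothelial genes were above the reference, and all 17 had the higher mean in SP cells. The share of all named genes with the higher mean in SP cells is not given, and the authors' list had selected for such differences. Aplnr, the apelin receptor of endothelial cells, had 4861, 4032 and 4083 in SP and 1319, 1057 and 1232 in NSP cells against 29.3, and Mmrn2, an endothelial matrix protein, had log2 ratios of 7.31 ± 0.36 and 5.09 ± 0.15. Of the endothelial list 17 of 27 genes were named; 12 had every SP array at least 4-fold above the reference (10.3% of named genes did and 4.16% of all probe sets) and 7 every NSP array (10.7% and 4.29%), with medians of 3.47 and 2.01. Sox17, a transcription factor of endothelium, had 939, 872 and 832, then 212, 134 and 154, and 8.0 in the reference. Its mean ratios were thus at least 51.8-fold and 9.61-fold. Means above the reference were found for 16 of the 17 in SP cells (44.0% of named genes) and 14 in NSP cells (49.5%). Cd34, a marker of endothelium and of blood progenitors, was below it on every array, with 453, 536 and 401 in SP and 220, 226 and 205 in NSP cells against 884. Flt1, a receptor for vascular growth factors, and Nos3, the endothelial nitric oxide synthase, had means of -0.079 ± 0.54 and -0.16 ± 0.59 in NSP cells, and both changed sign with the processing (0.043 for Flt1 after quantile normalization, 0.094 for Nos3 without NSP replicate 1). Rgs5 and Abcc9, genes of the pericytes that wrap small vessels, were far above in both populations, at 3.56 ± 0.20 and 5.00 ± 0.47 in SP and 3.11 ± 0.33 and 4.16 ± 0.41 in NSP cells, the reference being under the floor for both.

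Other stromal genes were mixed. Fabp4, a fatty acid carrier of fat cells and capillaries, had 6812, 4023 and 7053 in SP and 5276, 3047 and 4352 in NSP cells against 153. Of the fibroblast list 3 of 15 genes were named. For 2 of them every SP array was above the reference (38.2% of named genes) and every NSP array (42%). Dcn, a matrix proteoglycan, had 1.53 ± 0.18 and 0.52 ± 0.18 and Pdgfra, a growth factor receptor, 1.00 ± 0.27 and 0.77 ± 0.37. Col1a2, a chain of type I collagen, was below the reference at -0.20 ± 0.17 and -1.02 ± 0.42. None of these 3 was in a class. Col4a1, a chain of basement membrane collagen, had 20572, 21150.4 and 23526 in SP, 16050.5, 16097 and 18345 in NSP cells and 4126 in the reference, which puts its nearest array just under 4-fold. Lcn2, a secreted iron carrier of secretory epithelium and neutrophils, had 2872, 3019 and 7920 in SP and 7156, 7519 and 10066 in NSP cells against 264, and was the single named gene of the milk and secretory list of 12.

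**Figure D3:**
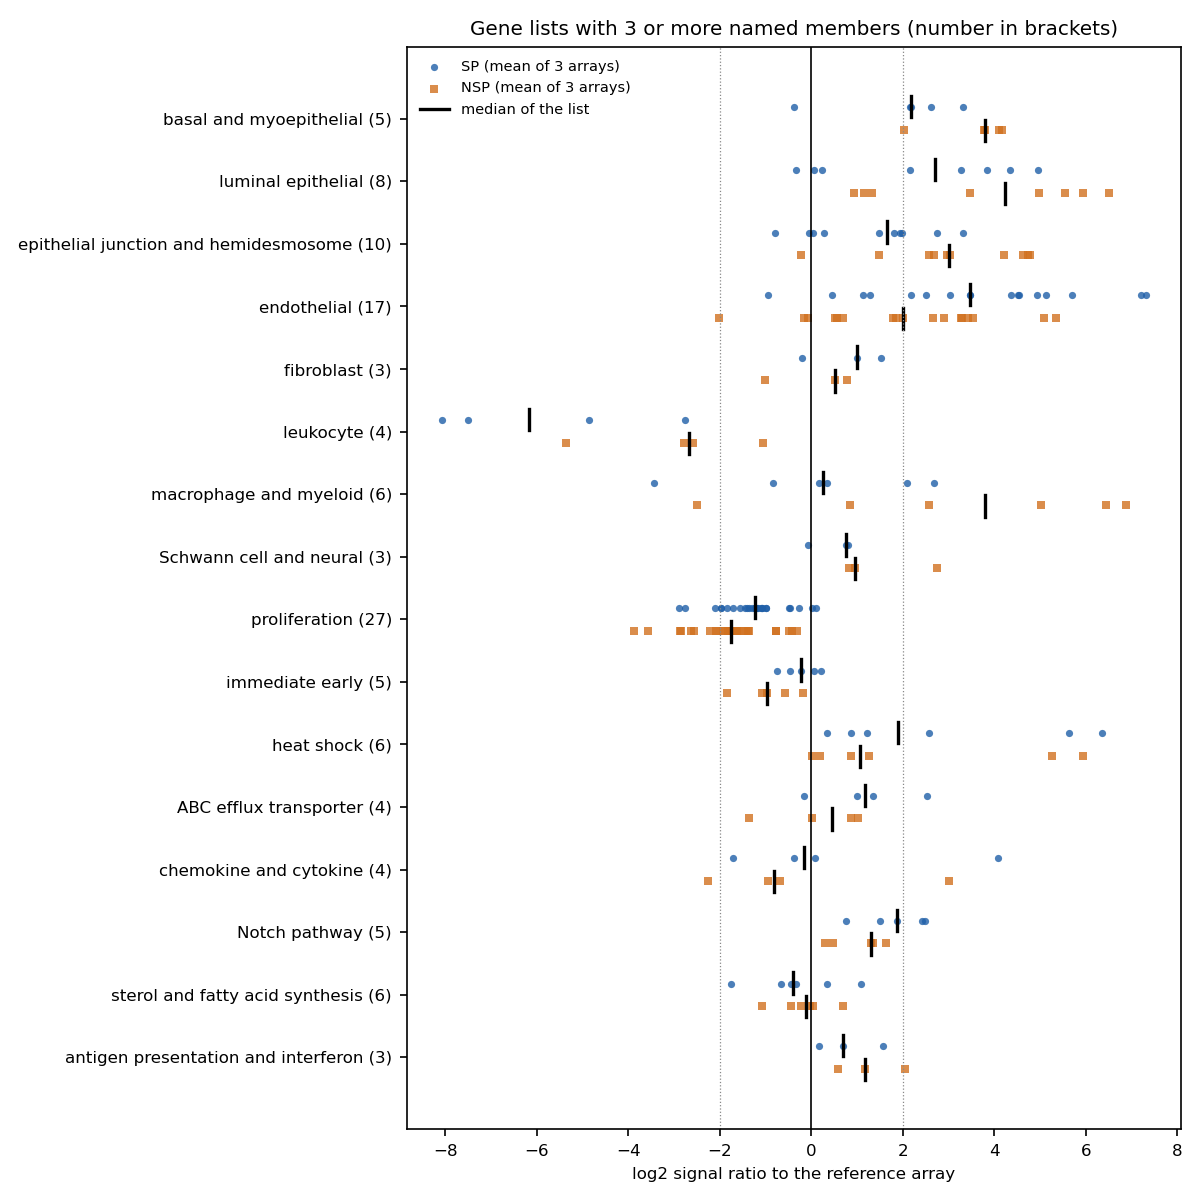
Log2 signal ratio to the reference array for the named members of each gene list with 3 or more of them (numbers in brackets); each circle is a gene's mean over 3 SP arrays, each square its mean over 3 NSP arrays, and bars are list medians. Endothelial medians are 3.47 in SP and 2.01 in NSP cells, luminal medians 2.71 and 4.23, proliferation medians -1.23 and -1.76, and leukocyte medians -6.18 and -2.68.

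The named leukocyte genes were below the reference in both populations, and 3 of the 4 were lower in SP than in NSP cells. Ptprc encodes CD45, the phosphatase carried by nearly all leukocytes. Its signals were 53.2, 75.8 and 2.1 in SP and 558, 218 and 159 in NSP cells against 11038 in the reference. As means of log2 ratios these were -8.08 ± 1.13 in SP, with 1 array set to the floor, and -5.36 ± 0.94 in NSP cells; the NSP array nearest to the reference was 19.8-fold under it. Laptm5, a lysosomal protein of blood cells, had 169, 21.7 and 61.3 in SP and 4004, 1687 and 909 in NSP cells against 10949. Ctss, the protease cathepsin S of antigen-presenting cells, had 329, 163 and 266, then 6042, 3244 and 1994, against 7069, and was far below in SP cells alone. All 4 named leukocyte genes of 12, Lcp1 included, had every array of both populations below the reference, as 38.5% of named genes did. Every SP array was at least 4-fold below for all 4 (3.37% of named genes and 3.12% of all probe sets), and every NSP array for 1, Ptprc (4.47% and 2.91%). Lcp1, an actin-bundling protein of leukocytes, had 85.1, 87.5 and 101 in SP and 234, 45.6 and 68.3 in NSP cells, with mean log2 ratios of -2.77 and -2.78, so the populations overlapped. Their summed signal was 348 to 636 in SP, 3131 to 10838 in NSP cells and 29677 in the reference. Itgb2, Themis2 and Cd68, named after their values were seen, are genes of leukocytes and macrophages that were also far below in both. Tcra, as the file names the T cell receptor alpha locus, had 283 to 343 in SP and 120 to 248 in NSP cells against 2311.

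Myeloid genes did not follow 1 pattern. Cd68, a lysosomal marker of macrophages, had 124, 154 and 172 in SP and 336, 227 and 316 in NSP cells against 1621. Arg1, which encodes arginase of activated macrophages, had 109.9, 91 and 127 in SP and 2992, 1684 and 632 in NSP cells, with 2.4 in the reference. Chil3, a chitinase-like protein of macrophages, had 111, 116 and 30.0 in SP and 2012, 2504 and 1612 in NSP cells, with 2.7 in the reference. Both were thus under the floor in the reference and bright in NSP cells, with mean ratios of at least 86.5-fold and 118-fold. For Arg1 the NSP array nearest to the reference was at least 37.2-fold above it. Ccl6, a chemokine, and Mmp9, a matrix metalloproteinase, were far above in NSP cells alone. The 6 named macrophage and myeloid genes of 17 had medians of 0.26 in SP and 3.79 in NSP cells, the SP median turning to -0.036 when a gene's probe sets were averaged. Their summed signal was 1193 to 1708 in SP, 6140 to 11739 in NSP cells and 2799 in the reference.

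Cell division genes were below the reference in both populations, as a group rather than by large steps. The proliferation list had 27 of 40 genes named. Every SP array was below the reference for 25 of them (48.4% of named genes) and every NSP array for 26 (42.4%), with medians of -1.23 and -1.76, but only Nusap1 and Kif11 were far below in both. At least 4-fold below on every array were 2 genes in SP cells (3.37% of named genes and 3.12% of all probe sets) and 7 in NSP cells (4.47% and 2.91%). Mki67, the gene of the Ki-67 antigen of cycling cells, had 5315, 5586 and 5153 in SP and 3701, 3705 and 2762 in NSP cells against 13773. These signals were bright on all 7 arrays and the SP arrays lay between the NSP arrays and the reference. Top2a, the topoisomerase that untangles replicated DNA, had log2 ratios of -1.97 ± 0.20 and -2.88 ± 0.39, and Cdc20, an activator of the anaphase-promoting complex, -0.98 ± 0.22 and -1.62 ± 0.40. Rrm2, a subunit of ribonucleotide reductase, had 0.01 ± 0.35 and -0.43 ± 0.48, its SP value turning to -0.12 after quantile normalization and to -0.81 when its probe sets were averaged.

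Genes of the mitotic spindle and kinetochore were among those far below in both. Nusap1, which bundles spindle microtubules, had 536, 673 and 658 in SP and 347, 307 and 287 in NSP cells against 4565. Kif11, the motor that pushes spindle poles apart, had 214, 206 and 232, then 116, 147 and 109, against 1466. No sorted array came near the reference for either. Cenpf, a kinetochore protein, had 631, 851 and 924 in SP and 408, 318 and 306 in NSP cells against 5102. Aspm, a spindle pole protein, had 729, 704 and 545, then 404, 384 and 245, against 3076. With Kif18a, Nek2, Racgap1 and Spag5, also of the mitotic spindle or of cell cleavage, they make 8 of the 22 genes, all but Nusap1 picked out after their values were seen. Far below in both were 1.85% of named genes and 1.87% of all probe sets. The spindle genes among the named genes were not counted, so the 8 have no share of their own. Others were lower than the reference but in no class. Cenpe had mean log2 ratios of -1.23 in SP and -2.16 in NSP cells, and Tpx2 -1.17 and -1.78.

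Promoters of cell cycle genes often hold CCAAT boxes and the cell cycle homology region TTTGAA. The 150 bases before the start of Cenpf (chr1:189688087-189688236, minus strand) and of Aspm (chr1:139454623-139454772, plus strand) are shown from RefSeq (GRCm38.p6) as the pair with the most CCAAT boxes of the 8, which are in capitals on either strand.
Cenpf: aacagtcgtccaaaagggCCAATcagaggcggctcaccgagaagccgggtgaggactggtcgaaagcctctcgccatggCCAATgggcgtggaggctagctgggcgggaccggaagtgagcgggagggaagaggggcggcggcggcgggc
Aspm: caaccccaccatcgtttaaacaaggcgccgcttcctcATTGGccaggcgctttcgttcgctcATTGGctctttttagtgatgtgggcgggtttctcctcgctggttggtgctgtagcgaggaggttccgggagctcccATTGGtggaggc
In the 250 bases before the start, Cenpf held 2 CCAAT boxes and Aspm 3. Of the 8 genes, 6 held at least 1, against 33.8% of 32851 mouse promoters, and 1, Kif11, held TTTGAA or its reverse, against 16% of them. No test is given, since the 8 genes were picked after their values were seen.

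The remaining genes far below in both included Afp, Ifi202b and a probe set of doubtful name. Not every gene of the class is described here. Afp, alpha-fetoprotein of fetal liver, had 81.3, 132 and 61.2 in SP and 78.5, 81.4 and 41.1 in NSP cells against 1831. Ifi202b, an interferon-inducible gene from a family of close copies whose expression is known to vary between mouse strains, had 488, 526 and 388, then 1932, 1386 and 876, against 14160.3. The probe set that the gene number names Noct is described in the file as an intracisternal A-particle gag mRNA, a retroelement transcript, so that name is doubtful. It had 213, 90 and 212 in SP and 206, 196 and 250.3 in NSP cells against 5781. The 2 populations did not separate for it. H19, an imprinted fetal RNA, was far below in SP cells alone, with 733, 357 and 715 against 2979 in the reference, while NSP cells had 4988, 5318 and 4667.

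**Figure D4:**
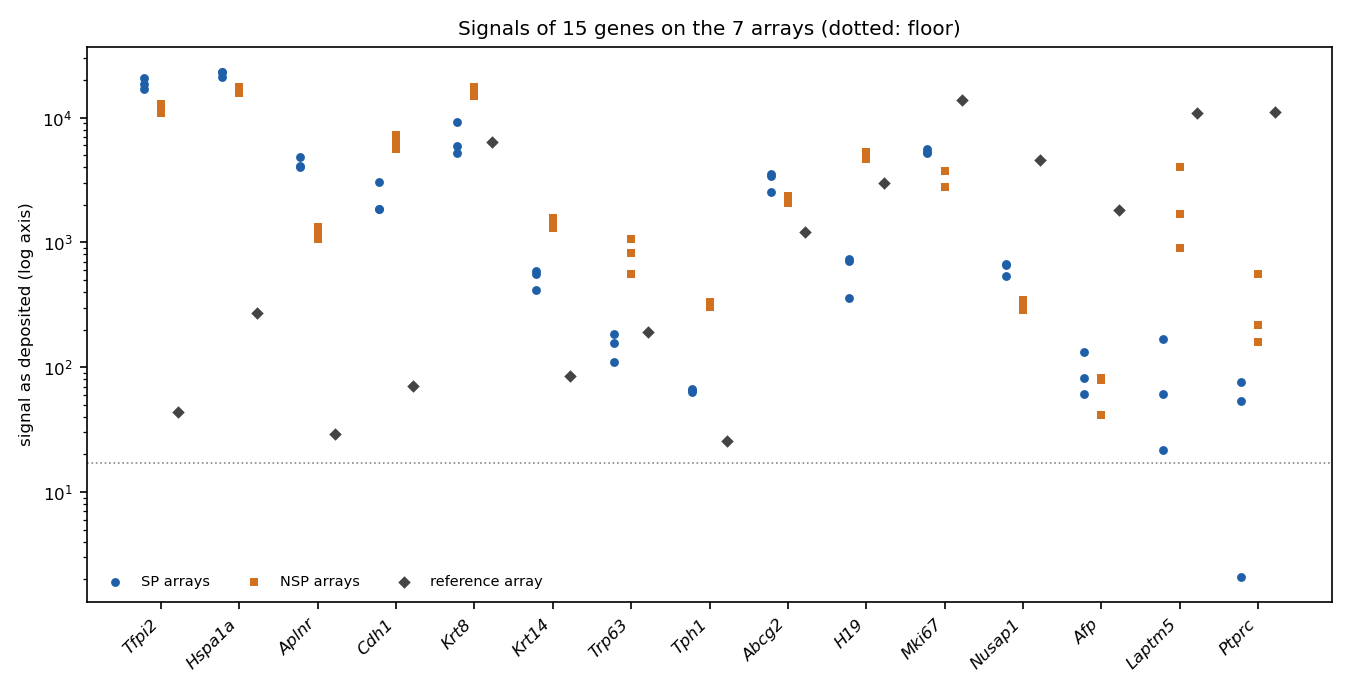
Deposited signals (vertical log axis) of 15 genes on the 3 SP arrays (circles), the 3 NSP arrays (squares) and the reference array (diamond); the dotted line is the floor of 17. Tfpi2 lies at 16784 or more on every SP array with 43.9 in the reference, Krt8 spans the reference, and Ptprc lies at 558 or less on all sorted arrays with 11038 in the reference.

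Genes far above the reference in SP cells alone included several of endothelium. Cd93, a surface lectin of endothelium, had 1226, 1177 and 1019 in SP and 362, 386 and 263 in NSP cells against 119.6 in the reference. Vwf, von Willebrand factor of endothelium and platelets, had 554, 1403 and 692, then 69.1, 198 and 123, against 73.8, so NSP arrays lay on both sides of the reference. Selp, the adhesion molecule P-selectin, had log2 ratios of 2.96 ± 0.53 and 1.48 ± 0.29, Apold1 3.48 ± 0.19 and 1.88 ± 0.07, and Tmem88 2.42 ± 0.11 and 1.17 ± 0.29. The other members were Hspa8, Notch4, a Notch receptor of endothelium, and Abcb1a, the drug efflux pump P-glycoprotein. Abcb1a had 1231, 1311 and 1082 in SP and 418, 447 and 397 in NSP cells against 207, and Abcg2, the pump best known for Hoechst efflux, had 2554, 3511 and 3378, then 2050.4, 2320.3 and 2337, against 1216 and was in no class. Of the other named pumps Abcc4 had log2 ratios of 1.00 ± 0.43 in SP and 0.03 ± 0.06 in NSP cells, and Abcb1b -0.16 ± 0.36 and -1.37 ± 0.99, with every NSP array below the reference.

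Genes far above in NSP cells alone included epithelial adhesion genes and myeloid genes. Itgb6, an integrin subunit of epithelium, had 67.1, 100.3 and 111 in SP and 550, 1161 and 817 in NSP cells against 32.5. Lamb3, a laminin chain of hemidesmosomes, had 157, 155 and 215 in SP, which is close to the 144 of the reference, and 876, 864 and 818 in NSP cells. Col17a1, a collagen of hemidesmosomes, had 52.1, 166 and 34.9 and then 490, 404 and 365, against 65.1. Ccl6 had 29.9, 3.7 and 43.8 in SP and 2145, 701 and 356 in NSP cells against 25.1, a spread among NSP arrays wider than for the adhesion genes. Ttn, the giant protein of striated muscle, had 122, 56.3 and 71.8, then 1198, 972 and 646, against 46.7. The list of 14 skeletal muscle genes had no named member, but other genes of striated muscle, picked after their values were seen, were named. Actc1, cardiac alpha-actin, had 46.5, 62.5 and 98.5 in SP and 1184, 720.4 and 1201 in NSP cells against 192, and Myh3, the embryonic myosin heavy chain, 40.1, 13.6 and 67.7, then 537, 195 and 340.2, against 90.5. Tnnt2, cardiac troponin T, and Chrna1, the muscle acetylcholine receptor, had log2 ratios of 0.02 ± 0.39 and -0.29 ± 0.46 in SP and 1.59 ± 0.08 and 1.92 ± 0.37 in NSP cells. None of these 4 was in a class, and none of their differences between the populations passed limma (adjusted p = 0.0552 to 0.171). Tph1, an enzyme of serotonin synthesis, had 65.5, 63.2 and 66.3 in SP and 322, 332 and 306 in NSP cells against 25.5.

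Genes far below in a single population included the myeloid genes Ctss and Lyz1 on the SP side. Lyz1, a lysozyme gene whose copy Lyz2 the file's description names instead, had 42.4, 37.8 and 294 in SP and 7069, 3707 and 2258 in NSP cells against 3748, so the NSP arrays spanned the reference. Asb5, an ankyrin repeat protein, had 30.4, 33.9 and 0.8, then 506, 481 and 313, against 1176. Bnc1, a zinc finger protein of basal keratinocytes, had 189, 316 and 314, then 800, 975 and 951, against 1964. Popdc3 and Cap1 had log2 ratios of -3.33 ± 1.01 and -2.98 ± 0.42 in SP and -1.69 ± 0.19 and -1.84 ± 0.12 in NSP cells. On the NSP side St8sia4, a polysialic acid transferase, had 317, 240.2 and 253 in NSP cells against 1722 in the reference and 1019 to 1657 in SP cells. Mecom, a transcription factor of blood stem cells and endothelium, had 196, 218 and 124 in NSP cells against 958, and 545 to 675 in SP cells. Slco4a1, Mastl, Rapgef3 and Aqp1 completed this class, with mean log2 ratios of -2.75 to -2.23 in NSP and -1.66 to -0.70 in SP cells.

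The difference between the populations was tested for the 36 genes of a single population with limma over all 38115 probe sets above the floor. Of the 36, only Tph1 passed an adjusted p of 0.05 (adjusted p = 0.0451, log2 SP minus NSP -2.30; 0.0763% of named genes and 0.0157% of all probe sets passed). All 36 had an unadjusted p under 0.05 in limma; the class rule and the authors' list had both selected for such a difference. With the sample number as a block none of the 36 passed, the smallest adjusted p by limma being 0.376, although all 36 again had an unadjusted p under 0.05; 0% of named genes and 0% of all probe sets passed there. Leaving out each of the 6 arrays in turn also ended the call, with an unadjusted p under 0.05 for 35 or 36 genes. With an intensity trend in limma's variance model 28 passed, where 12.4% of named genes and 1% of all probe sets did, and with block and trend 30, where 27.1% and 2.47% did. Asb5 and Lamb3 followed (adjusted p = 0.0552 for each by limma), with differences of -4.03 and -2.29. The words "in SP alone" and "in NSP alone" therefore describe a class by its rule, and for 35 of the 36 genes the difference between the populations did not pass the test.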

How the data were processed

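RNA of 3 SP, 3 NSP and 1 reference sample was measured on Affymetrix mouse expression arrays. The deposited intensity of each of 45101 probe sets came from MAS5, per the submitters' processing notes; version and scaling are not given in the sources used here. Per the labels' design text the authors also computed dChip values, hybridized 4 replicates of each population and left out 2 chips; a second reference chip is not analysed here. The authors' deposited list gives present calls in percent and gene numbers for 1632 probe sets. Names came from these gene numbers (1384 probe sets), a number (51) or symbol (48) in the description, matched to a RefSeq table of GRCm38.p6; 128 had no symbol and 21 several. For 23 of the 157 class genes the description holds a further gene number. Of several probe sets the brightest was used.

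Intensities were used as deposited; 64 control probe sets were left out, signals under 17 (20th percentile of the sorted arrays) were set to it, and log2 was taken. Ratios to the reference have no test; the number of arrays limits the precision. SP and NSP were compared with limma 3.58.1 (R 4.3.3; lmFit, eBayes, two-sided, Benjamini-Hochberg) on probe sets above the floor on at least 3 of 6 arrays; the code was tested on simulated data. Errors are SD over 3 arrays. The sample numbers pair the arrays: per the titles, 2 of 3 same-numbered samples share a day, and the list's header shows a paired comparison. Deviations within pairs correlated at 0.039, 0.041 and 0.12. These values are small, but each array correlated best with its own partner among the 3 arrays of the other population.

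The members, the 25 gene lists (378 genes, 124 named; lymphocyte, skeletal muscle and glycolysis lists had none) and the rules were chosen with earlier results of these data known. Named were up to 6 genes of each class, those whose nearest array was farthest from the reference, up to 4 members of each list by mean signal, and Tph1, Abcg2, Ptprc, Krt14 and Krt8; Cdh5 has no name in the table used here. Values of 1 further gene under this rule are left out here. Genes outside this rule are Arhgap31, Wnt11, Krt6a, Masp1, Nek1, Bub1b, Il11, Lif, Inhba, Wnt5a, Bag3, Hspa8, Cryab, Krt7, Cldn3, Cldn4, Itga6, Serpinb5, Sox17, Cd34, Itgb2, Themis2, Cd68, Top2a, Flt1, Nos3, Dnaja4, Actc1, Myh3, Tnnt2, Chrna1, Notch4 and the spindle genes other than Nusap1; they were chosen after their values were seen. Alternatives covered the fold limit, scaling, floor, minimum signal, probe set rule, variance model, block and leaving out each array.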

Additional observations from a re-analysis of the deposited data

Results flagged for a closer look

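Every SP array lay on one side of the reference and every NSP array on the other for 40 of 1311 named genes (3.05%), in 31 of them with NSP cells above. Of the 40, 3 belong to the genes chosen for naming: H19, Trp63 and S100a8. Actc1 and Myh3, described above and picked after their values were seen, are also among the 40. Their differences of -3.93 and -3.20 did not pass limma (adjusted p = 0.0552 and 0.171). H19 had mean log2 ratios of -2.38 in SP and 0.74 in NSP cells, a difference of -3.12 (limma, adjusted p = 0.0622). Trp63 had -0.38 and 2.03, a difference of -2.42 (adjusted p = 0.0912 by limma). S100a8, a calcium-binding protein of neutrophils, had 356, 516 and 256 in SP and 1481, 1002 and 1025 in NSP cells against 641 in the reference, a difference of -1.67 (adjusted p = 0.179 by limma). None of these 3 differences passed. Tph1 was on the same side in both populations, and its difference of -2.30 passed limma's test (adjusted p = 0.0451). It did not pass with the sample number as a block.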

How the results depend on the processing

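At 2-fold, 177 named genes were above the reference in both populations, 123 below in both, 21 below in SP alone and 14 below in NSP alone, with 1315 of all probe sets above and 1750.0 below in both. At 8-fold these were 47, 3, 4, 0, 240 and 150. Below in SP alone fell from 8 to 5 after centring on the common median, and above in SP alone rose from 8 to 13 with a floor of 56.6, the 40th percentile. The count of 36 genes passing limma, 1, was 0 with the replicate block, after centring, after quantile normalization and without any 1 array (0 to 0), with an unadjusted p under 0.05 for 35 or 36 genes in each of these. It was 28 with the intensity trend, 30 with replicate block and trend, 22 with that higher floor and 3 without the filter. The other counts stayed within 1.5 times, but not always with the same genes: of the 8 above in SP alone, 0 were in that class at 2-fold and 2 at 8-fold, and of the 14 above in NSP alone 5 and 4. The required distance between the population means moved with the limit, to 0.5 log2 units at 2-fold and 1.5 at 8-fold. A gene can leave a class when the limit moves because the other population then also passes it or its own no longer does. At 8-fold its means may also no longer lie far enough apart. Of 3576 gene values under the alternatives, 172 moved by over 1 SD, and of 528 list medians 28. The cause was not tested. The single reference array, the absence of its replicate and the naming of listed probe sets alone limit every count. The 4-fold limit is a choice of size, not of significance.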
